A study of Mus musculus with 18 samples.

Results

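Cerebral cortex of mice labelled Alg13 knockout was compared with cortex of mice labelled wild type at postnatal day 7, when interneurons have largely entered the cortex, synapses are forming quickly and myelination is about to begin. The comparison took the 3 knockout and the 3 wild type libraries of that age, 6 of the 18 RNA sequencing libraries of the series, and all 28852 genes of the deposited table. The other 12 libraries are knockout and wild type cortex at days 1 and 30, with 3 libraries a group, and served to estimate the spread and to show how genes change with age. Sources used here do not name the knockout allele, strain or sex of the mice. They also do not say that numbered replicates were different animals. The p-values therefore cover the spread of these libraries, and that spread may be technical.

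Alg13 is the catalytic subunit that, together with its membrane partner Alg14, adds the second sugar to the lipid-bound oligosaccharide from which N-glycans are made, on the cytosolic face of the endoplasmic reticulum. The precursor is flipped into the lumen, completed there, and transferred to new proteins by the oligosaccharyltransferase. In people, variants of the X-linked gene are known from an epileptic encephalopathy. The series asked how loss of the gene bears on where interneurons, the GABA-releasing inhibitory cells of the cortex, come to lie and how they migrate.

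Alg13 RNA did not check the labels. It stood at 1.93, 2.34 and 2.78 FPKM (fragments relative to transcript length and library size) in knockout cortex, against 1.92, 1.94 and 1.53 FPKM in wild type cortex. The groups overlapped, and the knockout mean was the higher one (log2 difference 0.26, SE 0.197, adjusted p = 1.00). A level over the whole gene can miss a small deletion, so every direction given here rests on the labels alone.

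The day 7 libraries were alike in overall measures. Between 11888 and 12056 genes reached 1 FPKM, the total FPKM was 316884 to 333286, and the relative depth, with wild type replicate 1 set to 1, was 1.00 to 1.11. All 6 libraries read as male. The female transcript Xist was at 0.0533 FPKM or less and the Y-linked gene Ddx3y at 12.3 to 15.02 FPKM. At day 1 Ddx3y varied widely, at 10.07 ± 6.38 FPKM in knockout and 10.74 ± 10.26 FPKM in wild type (SD, n = 3 each). The day 1 libraries may thus differ in sex, and what this adds to the spread was not tested. Replicate 3 of both groups stood apart from replicates 1 and 2 in the same way. Among genes chosen after their values were seen, the imprinted gene Nnat was 2.18 log2 units above the other replicates in knockout and 1.85 above in wild type, and Crym was 2.88 and 1.602 above. Smim43 was 1.26 and 1.48 log2 units below. Knockout replicate 3 alone held transthyretin, the defining transcript of choroid plexus, with Ttr at 137 FPKM against 0.561 or less in the other 5 libraries, and Cdhr1, a gene of olfactory bulb neurons, reached 15.5 FPKM in wild type replicate 3 against 3.56 or less elsewhere. How far dissection or position in the cortex contributes to these values was not tested.

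In the fit of all 18 libraries 1 of 13347 genes passed the threshold (0.00749%), and it was lower in knockout cortex. This gene was Tmem254, a small transmembrane protein gene of unknown function. Its level was 13.1, 13.4 and 14.2 FPKM in the 3 knockout libraries, against 38.8, 41.2 and 37.6 FPKM in the 3 wild type libraries. Every knockout library thus lay far below every wild type library, and the values within a group were close together. The log2 difference on the log2(FPKM + 1) scale, on which all differences here are given, was -1.47 (SE 0.185, adjusted p = 0.0079). Tmem254 remained past the threshold with the replicate block (adjusted p = 0.00572). On leaving out single day 7 libraries the difference held at -1.49 to -1.43, and the adjusted p was 0.0381 to 0.0919, past the threshold only without knockout replicate 2. The gene was also lower in knockout at days 1 and 30, at 7.47 ± 1.59 FPKM in knockout against 21.2 ± 7.28 FPKM in wild type and at 7.93 ± 0.84 FPKM in knockout against 19.8 ± 1.11 FPKM in wild type (SD, n = 3 each).

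Tmem254 lies on chromosome 14 in a segment that the mouse reference build GRCm38.p6 carries in 3 neighbouring copies. Each has a Tmem254, a Plac9, a Duxbl and a Cphx gene. The deposited table lists 1 gene of each kind. The start regions of the copies are shown for their likeness. Capitals mark the longest run of bases shared between the copies printed. It is 284 of 300 bases for Tmem254a and Tmem254b and 222 of 300 bases for Plac9a and Plac9b. Most of each window lies before the annotated start, so it does not show whether RNA fragments can be assigned to 1 copy. The windows come from RefSeq, build GRCm38.p6, run from 250 bases before to 50 bases after the gene start and read 5′ to 3′ on the minus strand. They lie at chr14:25927623-25927922 for Tmem254a, chr14:26206976-26207275 for Tmem254b, chr14:25902844-25903143 for Plac9a and chr14:26182302-26182601 for Plac9b.
Tmem254a: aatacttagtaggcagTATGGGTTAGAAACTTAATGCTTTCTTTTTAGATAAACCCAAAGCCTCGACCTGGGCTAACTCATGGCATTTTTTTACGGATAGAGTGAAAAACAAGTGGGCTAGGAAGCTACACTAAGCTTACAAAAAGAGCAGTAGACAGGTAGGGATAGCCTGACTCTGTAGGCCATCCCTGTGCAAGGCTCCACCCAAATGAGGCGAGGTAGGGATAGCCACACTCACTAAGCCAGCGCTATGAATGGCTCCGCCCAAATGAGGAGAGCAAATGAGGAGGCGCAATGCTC
Tmem254b: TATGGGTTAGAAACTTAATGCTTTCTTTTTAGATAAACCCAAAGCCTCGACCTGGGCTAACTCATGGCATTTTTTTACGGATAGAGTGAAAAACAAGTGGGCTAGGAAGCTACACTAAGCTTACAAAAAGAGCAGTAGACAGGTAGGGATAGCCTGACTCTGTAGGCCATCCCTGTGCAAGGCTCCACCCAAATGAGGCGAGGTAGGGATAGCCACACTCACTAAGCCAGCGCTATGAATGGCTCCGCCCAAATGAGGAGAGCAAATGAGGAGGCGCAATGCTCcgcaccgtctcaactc
Plac9a: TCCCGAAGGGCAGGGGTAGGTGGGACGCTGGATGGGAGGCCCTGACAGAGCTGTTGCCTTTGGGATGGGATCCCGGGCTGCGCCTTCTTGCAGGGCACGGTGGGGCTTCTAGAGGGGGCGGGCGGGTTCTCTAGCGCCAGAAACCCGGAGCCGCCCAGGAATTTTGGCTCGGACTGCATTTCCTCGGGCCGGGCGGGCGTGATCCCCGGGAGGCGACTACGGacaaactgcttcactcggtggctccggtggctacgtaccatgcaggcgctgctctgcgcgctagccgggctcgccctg
Plac9b: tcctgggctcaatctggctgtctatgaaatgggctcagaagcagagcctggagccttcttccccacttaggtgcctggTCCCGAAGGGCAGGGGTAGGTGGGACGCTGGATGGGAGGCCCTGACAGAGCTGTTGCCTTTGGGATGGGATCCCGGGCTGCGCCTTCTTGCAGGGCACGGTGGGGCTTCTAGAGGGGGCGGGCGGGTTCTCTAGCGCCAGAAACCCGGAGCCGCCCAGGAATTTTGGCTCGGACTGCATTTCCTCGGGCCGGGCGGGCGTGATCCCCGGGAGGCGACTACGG
The annotated starts of the 2 Tmem254 copies differ by 16 bases within an otherwise shared window, and those of the Plac9 copies by 78 bases. The window of the third copy, Tmem254c, equals that of Tmem254a at 300 of 300 bases. The Tmem254a window holds 6 CG pairs and the Plac9a window 26, against a median of 7 over 32851 windows of that length. The best matching transcripts of Tmem254a and Tmem254b share an unbroken run of 1447 bases, the whole of the shorter one, and those of Plac9a and Plac9b share 1040, again the whole of the shorter. Whether the authors' build, GRCm39, carries the same copies was not looked up. Which copy the values of Tmem254, Plac9 and Duxbl1 stem from is therefore unknown.

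Other genes of the segment were low in knockout libraries as well. Plac9, which encodes a small secreted protein, measured 1.54, 1.10 and 1.46 FPKM in knockout cortex, against 9.17, 10.1 and 9.54 FPKM in wild type cortex. The groups lay far apart, with the largest knockout value well under the smallest wild type value. The log2 difference was -2.17 (SE 0.379) with an adjusted p of 0.154 in the fit of all 18 libraries. It passed in the fit of the 6 day 7 libraries alone (adjusted p = 0.000315) and in the 18-library fit without wild type day 1 replicate 3 (adjusted p = 2.25e-07), in which Plac9 stood at 20.5 FPKM. Duxbl1, a double homeobox gene, was at 0.136, 0.0950 and 0.202 FPKM in knockout, against 0.678, 0.385 and 0.609 FPKM in wild type. These low levels did not overlap (log2 difference -0.44, SE 0.171), and the gene did not pass the 18-library fit. Anxa11, an annexin gene that borders the segment, overlapped between the groups at 1.71, 1.48 and 1.89 FPKM in knockout and 1.67, 1.43 and 2.59 FPKM in wild type. Cphx1 stayed below the filter, at 0.0564 FPKM or less in all 6 libraries.

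**Figure D1:**
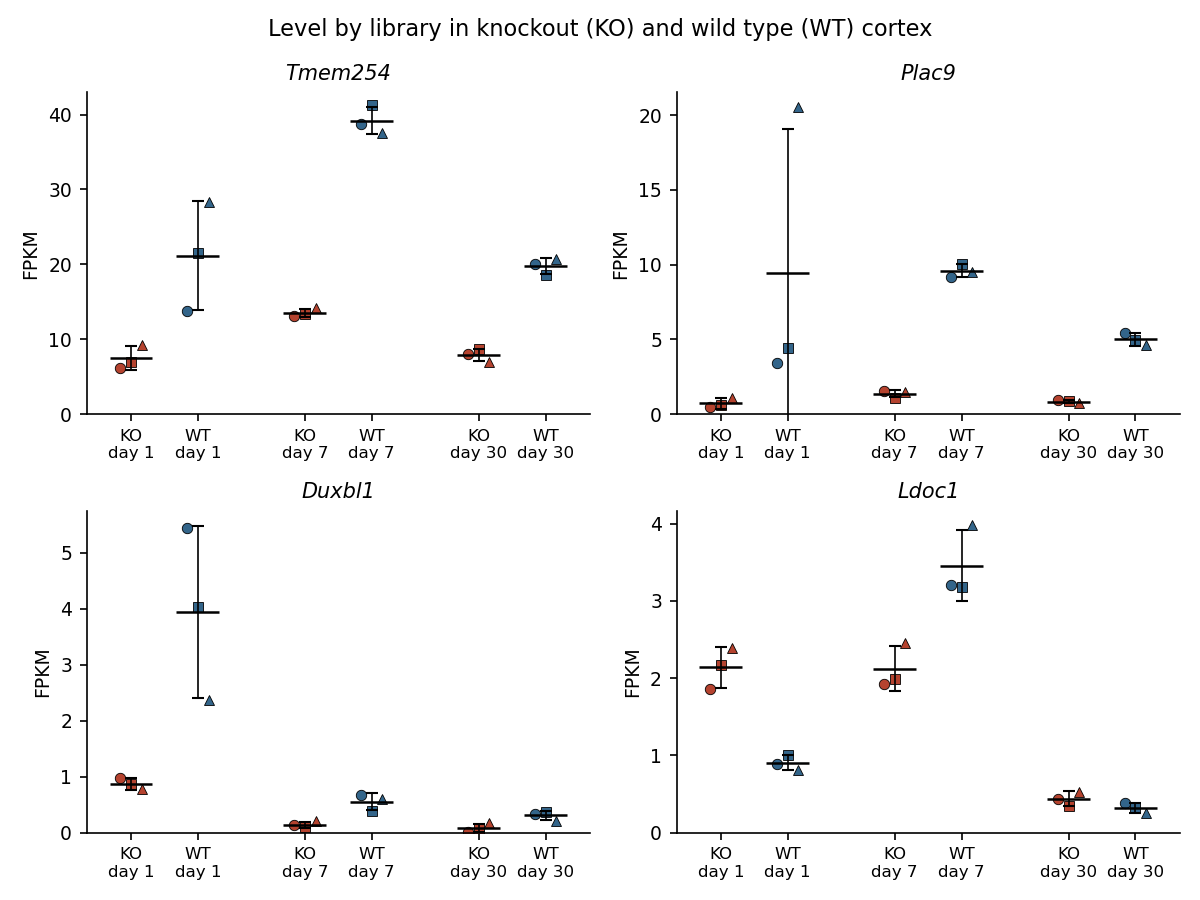
FPKM of Tmem254, Plac9, Duxbl1 and Ldoc1 in every library at days 1, 7 and 30, knockout left of wild type; circles, squares and triangles are replicates 1, 2 and 3, horizontal bars are means and error bars are SD (n = 3). At day 7 Tmem254 sits at 13.1 to 14.2 FPKM in knockout and 37.6 to 41.2 FPKM in wild type, and Ldoc1 is lower in knockout at day 7 but higher at day 1.

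How many genes passed at day 7 depended on which libraries set the spread. The fit of the 6 day 7 libraries alone called 9 genes (0.0674%), 2 higher (0.015%) and 7 lower (0.0524%) in knockout. Libraries of the same number deviated together in the 2 groups, although replicates 1 and 2 could not be told apart in this, and the paired fit, which is the fit of these 6 libraries with the replicate number as a block, called 500 genes (3.75%), 193 higher (1.45%) and 307 lower (2.3%). The paired fit was added after the data had been seen, and it rests on 2 residual degrees of freedom. Without pair 1 it called 34 genes, without pair 2 it called 4, and without pair 3 it called 2336, so its count is given as an order of magnitude at most. A block within each day in the fit of all 18 libraries left the count at 1.

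The differences were small. The median absolute log2 difference over all genes was 0.10, and 11 genes differed by more than 1 log2 unit, 4 higher and 7 lower. At an unadjusted p under 0.05 in the fit of all 18 libraries there were 470 genes (3.52%), 241 higher (1.81%) and 229 lower (1.72%). This is fewer than 5 in 100, but the share depended on the fit. The same cut held 846 genes without wild type day 1 replicate 3. It held 1828 (13.7%) in the fit of the 6 day 7 libraries and 3180 (23.8%) in the paired fit. The median SE was 0.159 with all 18 libraries and 0.0929 with the 6. The 3 knockout values lay wholly above the 3 wild type values in 1300 genes (9.74%) and wholly below in 1449 (10.9%). The median difference over all genes was -0.01, and 47.4% of genes had a positive difference. Rescaling each library to an equal total without the mitochondrially encoded genes, added after the data had been seen, raised that share to 61.4% and shifted the median to 0.04.

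Besides Tmem254 and Plac9, the fit of the 6 day 7 libraries called Calb1, Zkscan3 and 5 genes of salivary gland and airway. Calb1 encodes calbindin, a calcium buffer of a subset of interneurons and of upper layer neurons. It measured 26.3, 28.7 and 29.0 FPKM in knockout, against 16.3, 16.8 and 14.02 FPKM in wild type. The lowest knockout library was thus well above the highest wild type library (log2 difference 0.80). The SE was 0.272 and the adjusted p 1.00 in all 18 libraries, against an SE of 0.0832 and an adjusted p of 0.034 in the 6 libraries. Zkscan3, a zinc finger repressor of autophagy genes, measured 14.4, 14.4 and 14.6 FPKM in knockout, against 8.42, 9.21 and 9.54 FPKM in wild type. Its knockout values were nearly equal and all above wild type (log2 difference 0.62, SE 0.122, adjusted p = 0.0417 in the 6 libraries and 0.343 in all 18).

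The salivary gland genes were listed at 0 in all 3 knockout libraries. Bpifa2, a secreted salivary protein, was at 3.40, 4.17 and 5.00 FPKM in wild type, Smgc at 1.54, 1.68 and 2.24 FPKM, and Dcpp2 at 1.15, 1.10 and 1.13 FPKM. Dcpp3 ranged from 1.01 to 1.79 FPKM in wild type. No fold is given against a value listed at 0. Over the whole marker list the sum was 4.82 to 6.38 FPKM in knockout and 14.9998 to 17.0 FPKM in wild type, and the 6 genes Bpifa2, Smgc, Prol1, Dcpp1, Dcpp2 and Dcpp3 made up the difference while Amy1 and Aqp5 overlapped. Scgb1a1, the secretoglobin of airway club cells, measured 20.2, 18.1 and 20.7 FPKM in knockout, against 35.5, 32.8 and 34.8 FPKM in wild type (log2 difference -0.78, adjusted p = 0.0178 in the 6 libraries and 1.00 in all 18). Sftpc, a surfactant protein of lung, was at 4.23 ± 0.34 FPKM in knockout and 7.54 ± 0.68 FPKM in wild type (SD, n = 3 each). Bpifa2 stood at 14952 FPKM in wild type day 1 replicate 3 and at 6.30 FPKM or less in the other 17 libraries of the series. Scgb1a1 was not confined to 1 group either, at 0.139 FPKM in knockout day 30 replicate 2 and 79.7 FPKM in wild type day 1 replicate 1. Where these transcripts came from was not tested.

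Of the genes higher in knockout, ranked by p among genes of at least 2 FPKM with no overlap between groups, the first 12 were Pcsk1, Zkscan3, Septin8, Dynlt1b, Nrn1, Slit2, Hpcal4, Mbp, Olfm3, Cckbr, Mag and Dgkb. Pcsk1 encodes the convertase that cuts neuropeptide precursors. It measured 4.48, 4.17 and 4.22 FPKM in knockout, against 2.51, 2.45 and 2.11 FPKM in wild type, with a log2 difference of 0.66 (SE 0.116, adjusted p = 0.154). Nrn1, neuritin, a membrane-anchored protein induced by activity that promotes neurite growth, measured 18.03, 19.1 and 24.9 FPKM in knockout, against 6.21, 8.52 and 14.1 FPKM in wild type. Its knockout libraries were all higher (log2 difference 1.09, SE 0.233, adjusted p = 0.384). The calcium sensor Hpcal4 averaged 67.9 ± 6.41 FPKM in knockout and 45.6 ± 2.09 FPKM in wild type (SD, n = 3 each). The cholecystokinin receptor Cckbr averaged 5.07 ± 0.78 FPKM in knockout and 2.61 ± 0.42 FPKM in wild type (SD, n = 3 each).

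The remaining genes of this group were the cytoskeletal GTPase Septin8 (log2 difference 0.42), the secreted olfactomedin Olfm3 (0.51), the lipid kinase Dgkb (0.54) and the dynein light chain Dynlt1b (0.75). Dynlt1b may be uncertain as to the copy as well. In GRCm38.p6 its 771-base transcript shares an unbroken run of 499 bases with that of its copy Dynlt1c. None of the 12 passed in the fit of all 18 libraries, where their adjusted p-values ran from 0.154 to 0.471. Zkscan3 alone of them passed in the fit of the 6 libraries. In the paired fit 9 of the 12 passed, where 1.45% of all genes did so in that direction, and Olfm3, Mag and Dgkb did not. The 12 were chosen for separation in these same 6 libraries, so passing in either fit of them adds no separate support.

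In the downward direction the first 12 were Tmem254, Plac9, Ldoc1, Txnrd3, Vash2, Snrpb, Trim67, Eef2k, Bex4, R3hcc1, Wdr46 and Cdk11b. Vash2 removes the terminal tyrosine of tubulin, and it measured 5.53, 5.03 and 7.52 FPKM in knockout, against 9.81, 7.96 and 14.7 FPKM in wild type. Trim67 encodes a ubiquitin ligase of developing neurons, and it measured 15.3, 13.6 and 16.8 FPKM in knockout, against 25.5, 20.9 and 40.9 FPKM in wild type. Neither gene overlapped between groups, and replicate 3 was the highest library of both groups for both. The log2 differences were -0.73 (SE 0.188) for Vash2 and -0.84 (SE 0.222) for Trim67. Snrpb, a core protein of the spliceosome, averaged 24.1 ± 2.55 FPKM in knockout and 34.3 ± 1.33 FPKM in wild type (SD, n = 3 each). The redox enzyme Txnrd3 (log2 difference -0.55), the kinase of translation elongation Eef2k (-0.38), Bex4 (-0.50), R3hcc1 (-0.44), the ribosome assembly factor Wdr46 (-0.38) and the kinase Cdk11b (-0.29) lay lower by smaller amounts. The 10 genes other than Tmem254 and Plac9 had adjusted p-values of 0.384 or more in the fit of all 18 libraries. All 10 passed in the paired fit, where 2.3% of all genes did so in that direction. They too were chosen for separation in the day 7 libraries, so their passing there adds no separate support.

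Genes of inhibitory neurons were examined because interneurons were the question of the series. Of 20 genes shared by GABAergic neurons 12 were higher and 8 lower in knockout, with a median log2 difference of 0.06 against -0.01 over all genes. Gad2, 1 of the 2 enzymes that make GABA, measured 11.2, 11.7 and 14.3 FPKM in knockout, against 7.94, 7.66 and 5.35 FPKM in wild type. Its groups did not overlap (log2 difference 0.76, SE 0.309), and it passed neither the 18-library nor the paired fit (adjusted p = 0.0537 in the paired fit). Gad1, the other enzyme, averaged 22.7 ± 5.35 FPKM in knockout and 17.8 ± 3.38 FPKM in wild type (SD, n = 3 each) and was the 1 gene of the list to pass in the paired fit (adjusted p = 0.0385).

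Markers of interneuron subtypes leaned the same way with wide spread. Of 22 tested, 18 were higher and 4 lower, with a median of 0.20, and without knockout replicate 3 the median was 0.03 with 12 higher and 10 lower. Calb1 and the neuropeptide gene Vip passed in the paired fit. Sst, the peptide of a large interneuron class, averaged 102 ± 37.2 FPKM in knockout and 86.8 ± 13.5 FPKM in wild type (SD, n = 3 each), a difference of 0.19 that turned to -0.09 without knockout replicate 3. Striatal markers were high in that same library, with a summed level of 100.4 FPKM against 46.4 to 50.7 FPKM in the other 5 libraries. The striatal list shares Tac1 and Penk with the interneuron list, so the lists are not separate. The part of striatal tissue in the interneuron values was not tested. Of 28 genes of neuronal migration and guidance 13 were higher and 15 lower (median -0.01). Slit2, a ligand that repels migrating neurons and axons through Robo receptors, measured 4.36, 4.08 and 3.94 FPKM in knockout, against 2.71, 2.64 and 2.82 FPKM in wild type. Its groups did not overlap (log2 difference 0.46, SE 0.102, adjusted p = 0.384, and 0.039 in the paired fit). Doublecortin, Dcx, lay lower and is described with the immature neurons.

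Receptors for GABA and glycine and their anchors were higher with near uniformity. Of 23 genes 22 were higher in knockout, with a median of 0.24, and 5 had an unadjusted p under 0.05 where 1.81% of all genes did so in that direction. Gabra4, an alpha subunit of GABA-A receptors, measured 25.2, 25.5 and 17.3 FPKM in knockout, against 18.96, 20.4 and 12.02 FPKM in wild type. Replicate 3 was lowest in both groups, which is why the groups overlapped while each knockout library exceeded the wild type library of its number (log2 difference 0.40, SE 0.175, adjusted p = 0.0326 in the paired fit). Glra3, a glycine receptor subunit, averaged 2.35 ± 0.34 FPKM in knockout and 1.49 ± 0.07 FPKM in wild type (SD, n = 3 each). In the paired fit 7 of the 23 passed, all higher, where 1.45% of all genes did so. Among them were the GABA receptor subunits Gabra2, Gabra4 and Gabrb1 and the glycine receptor subunits Glra3 and Glrb. Gabrg1 (0.35) did not pass.

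Most excitatory synapse and channel genes were also higher, by small amounts. Of 21 glutamate receptor genes 18 were higher (median 0.14), of 20 voltage-gated channel genes 18 (median 0.23), of 17 release genes 14 (median 0.14) and of 14 immediate-early genes 13 (median 0.22). In the paired fit the AMPA receptor subunits Gria2 and Gria3, the sodium channel genes Scn1a and Scn2b, the synapsin Syn2 and the transcription factor Egr3 were the members of these lists that passed. Scn2b averaged 18.1 ± 3.69 FPKM in knockout and 11.6 ± 2.83 FPKM in wild type (SD, n = 3 each). Gria3 averaged 23.1 ± 0.52 FPKM in knockout and 16.8 ± 0.91 FPKM in wild type (SD, n = 3 each). Markers of excitatory neurons as a cell type were 8 higher and 7 lower of 15 (median 0.02), with Nrn1, the vesicle protein Sv2b and the glutamate transporter Slc17a7 past the threshold in the paired fit. The channel median was 0.08 without wild type replicate 3 and 0.37 without knockout replicate 3.

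Genes of immature neurons lay lower without exception. All 16 tested members of that list were lower in knockout, with a median of -0.40, and 6 had an unadjusted p under 0.05 (1.72% of all genes in that direction). Tubb2b, a tubulin of migrating and extending neurons, measured 709, 751 and 1106 FPKM in knockout, against 1130, 1121 and 1559 FPKM in wild type. Replicate 3 was highest in both groups, and every knockout library was below every wild type library (log2 difference -0.58, SE 0.218, adjusted p = 0.0164 in the paired fit). The neuronal tubulin Tubb3 measured 678, 662 and 819 FPKM in knockout, against 877, 891 and 1135 FPKM in wild type. Dcx, the microtubule protein of migrating neurons, measured 78.3, 73.7 and 86.8 FPKM in knockout, against 110 and 147 FPKM in wild type replicates 1 and 3 and 88.9 FPKM in replicate 2. Both were without overlap, at log2 differences of -0.42 and -0.50. The transcription factor Sox11 (-0.66), the growth cone protein Gap43 (-0.38), the collapsin response mediators Crmp1 (-0.44) and Dpysl3 (-0.42) and the tubulin-binding Stmn1 (-0.40) were also lower. In the paired fit 10 of the 16 passed, all lower, where 2.3% of all genes did so. Sox11 was not among them (adjusted p = 0.0526). The whole list's summed level was 5972 to 7417 FPKM in knockout and 7705 to 9877 FPKM in wild type. The median was -0.27 without wild type replicate 3 and -0.50 without knockout replicate 3. In a bulk sample fewer cells of a type and less RNA per cell cannot be told apart.

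Cortical identity genes and progenitor genes gave a weaker picture. Of 12 identity genes 11 were lower (median -0.23, and -0.12 without knockout replicate 3), with Neurod2 at 22.7 ± 1.30 FPKM in knockout and 28.8 ± 2.36 FPKM in wild type (SD, n = 3 each). None of them passed in the paired fit. Of 22 progenitor and cell division genes 15 were lower (median -0.06), and none passed in any of the 3 fits.

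Myelin genes were higher. Of 24 genes of oligodendrocytes and myelin 23 were higher in knockout, with a median of 0.34, and 11 had an unadjusted p under 0.05, against 1.81% of all genes in that direction. Mbp, the myelin basic protein, measured 14.7, 21.1 and 17.0 FPKM in knockout, against 8.35, 12.8 and 6.44 FPKM in wild type. The groups did not overlap, and replicate 2 was the highest library of both. The log2 difference was 0.90 (SE 0.199, adjusted p = 0.384). Mag, a glycoprotein of the inner myelin membrane, and Mobp, a structural myelin protein, averaged 2.94 ± 0.69 and 1.82 ± 0.93 FPKM in knockout, against 1.11 ± 0.85 and 0.47 ± 0.45 FPKM in wild type (SD, n = 3 each). The glial gap junction gene Gjc3 was at 0.54. In the paired fit 4 of the 24 passed, all higher, where 1.45% of all genes did so. Among them were Mbp, Mobp and Ugt8a, an enzyme of myelin lipid synthesis. The list's median was 0.21 without wild type replicate 1, with 21 higher and 3 lower. Oligodendrocyte precursor genes were 8 higher and 3 lower of 11 (median 0.09), with Gpr17 the 1 gene past the threshold in the paired fit.

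Genes of resting microglia were mostly higher, and those of astrocytes less so. Of 14 microglial genes 13 were higher (median 0.43), and 9 passed in the paired fit, all higher, where 1.45% of all genes did so. That fit called 4 genes in all without pair 2. A further list, of microglial activation, had a median of 0.04 over 10 genes, and none of them passed in the paired fit. P2ry12, the purinergic receptor of resting microglia, measured 17.9, 20.1 and 11.02 FPKM in knockout, against 10.2, 11.3 and 6.33 FPKM in wild type. Replicate 3 was lowest in both groups and brought them into overlap (log2 difference 0.75, SE 0.225, adjusted p = 0.0123 in the paired fit). The fractalkine receptor Cx3cr1 (0.55), the lectin Siglech (0.56) and the integrin Itgam (0.65) passed in the paired fit as well. Blood genes gave no parallel difference, with a summed level of 267 to 327 FPKM in knockout and 261 to 381 FPKM in wild type. Of 15 astrocyte genes 14 were higher (median 0.15, and 0.05 without wild type replicate 3). The exception, the folate enzyme Aldh1l1, was at 16.3 ± 1.03 FPKM in knockout and 20.3 ± 1.88 FPKM in wild type (SD, n = 3 each) and was the 1 astrocyte gene to pass in the paired fit. Cholesterol synthesis genes leaned lower, 16 of 22 (median -0.12, and -0.01 without wild type replicate 3), with Mvd past the threshold in the paired fit.

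**Figure D2:**
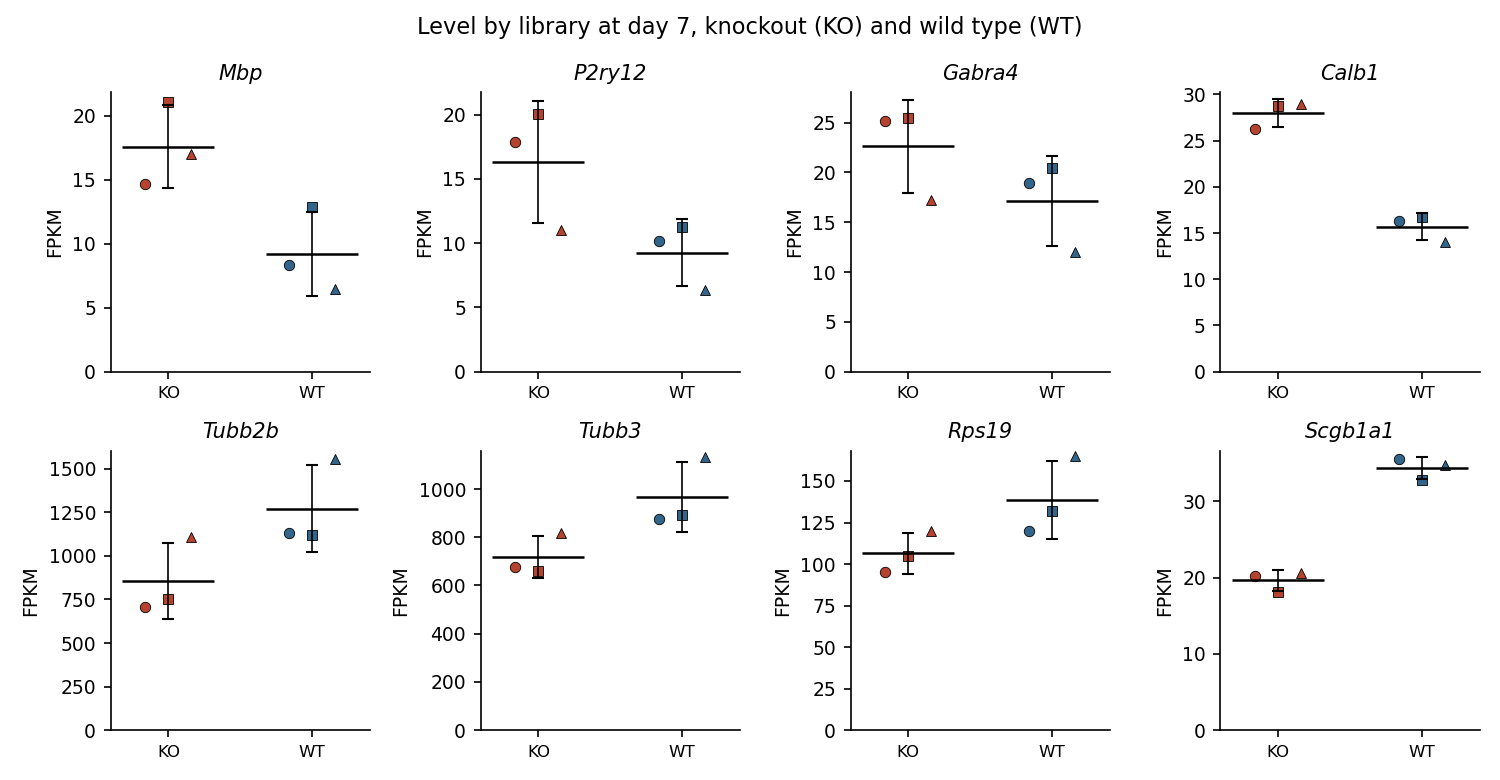
FPKM at day 7 of Mbp, P2ry12, Gabra4, Calb1, Tubb2b, Tubb3, Rps19 and Scgb1a1, knockout left of wild type; circles, squares and triangles are replicates 1, 2 and 3, horizontal bars are means and error bars are SD (n = 3). The upper 4 genes are higher in knockout and the lower 4 are lower, and replicate 3 (triangle) departs from the other replicates in the same direction in both groups for P2ry12, Gabra4, Tubb2b, Tubb3 and Rps19.

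Cytosolic ribosomal protein genes were lower by a small and even amount. All 20 members of the list were lower in knockout, with a median of -0.21 and a range of -0.37 to -0.13, and 10 passed in the paired fit. Rps19, a protein of the small subunit, measured 95.1, 105 and 120 FPKM in knockout, against 120, 132 and 165 FPKM in wild type. Each knockout library was below the wild type library of its number, although the groups met at about 120 FPKM (log2 difference -0.37, SE 0.228, adjusted p = 0.0268 in the paired fit). Rpl4, Rplp0 and Rplp1 had differences of -0.25, -0.26 and -0.30. Over all 94 genes named Rpl or Rps, a set chosen after the data had been seen, 86 were lower, and 47 passed in the paired fit, all lower, where 2.3% of all genes did so. The set goes by name alone, so these counts include some genes that do not encode ribosomal proteins.

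Mitochondrially encoded genes went the other way. All 13 were higher in knockout, with a median of 0.20. They took 14.1%, 13.8% and 12.8% of total FPKM in knockout libraries, against 11.3%, 12.1% and 11.4% in wild type libraries. The shares did not overlap (exact two-sided permutation p = 0.1, the smallest that 3 against 3 libraries allow). COX1, the most abundant transcript of all, stood at 11600 ± 148 FPKM in knockout and 9653 ± 564 FPKM in wild type (SD, n = 3 each). ATP8 was the 1 member past the threshold in the paired fit. Of 18 nuclear genes of the respiratory chain 6 were higher and 12 lower (median -0.01). FPKM is relative to library size, so a larger mitochondrial share can lower the FPKM of other genes. The ribosomal median was -0.15 after rescaling to an equal total without the mitochondrial genes. That step also evened out differences in total FPKM, so the part of the mitochondrial share in this value was not tested.

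The N-glycosylation pathway itself showed little. Of the 7 genes of the cytosolic steps 6 were slightly higher (median 0.09), with Alg14, the partner of Alg13, at 6.95 ± 0.45 FPKM in knockout and 6.20 ± 0.30 FPKM in wild type and Alg11, a mannosyltransferase, at 6.74 ± 0.33 against 5.88 ± 0.23 FPKM (SD, n = 3 each). None of the 7 passed in any of the 3 fits. Of 11 genes of the lumenal steps 5 were higher and 6 lower (median -0.01). Alg3, which adds the first lumenal mannose, measured 5.46, 4.61 and 5.17 FPKM in knockout, against 4.13, 3.36 and 3.82 FPKM in wild type. It had no overlap (log2 difference 0.35, SE 0.14) and passed in the paired fit (adjusted p = 0.0496). Of 12 oligosaccharyltransferase genes 5 were higher and 7 lower (median -0.06), and none passed.

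Genes of protein folding in the endoplasmic reticulum and the unfolded protein response were 17 higher and 8 lower of 25 (median 0.07). The chaperone Dnajb9 was at 18.4 ± 0.86 FPKM in knockout and 14.5 ± 1.45 FPKM in wild type, and the stress transcription factor Atf4 was at 64.7 ± 1.94 FPKM in knockout and 78.5 ± 3.82 FPKM (SD, n = 3 each). Both passed in the paired fit, in opposite directions. Of 14 Golgi enzymes 9 were higher and 5 lower (median 0.07). The mannosidase genes Man1a (0.32), Man1a2 (0.14) and Man2a1 (0.19) had no overlap between groups and did not pass in the paired fit. The 1 enzyme that passed there was St8sia2, which builds polysialic acid on the adhesion molecule NCAM in young neurons, at 10.4, 8.51 and 15.6 FPKM in knockout, against 14.6, 14.8 and 30.0 FPKM in wild type. Its groups overlapped through knockout replicate 3 (log2 difference -0.69, adjusted p = 0.028 in the paired fit).

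**Figure D3:**
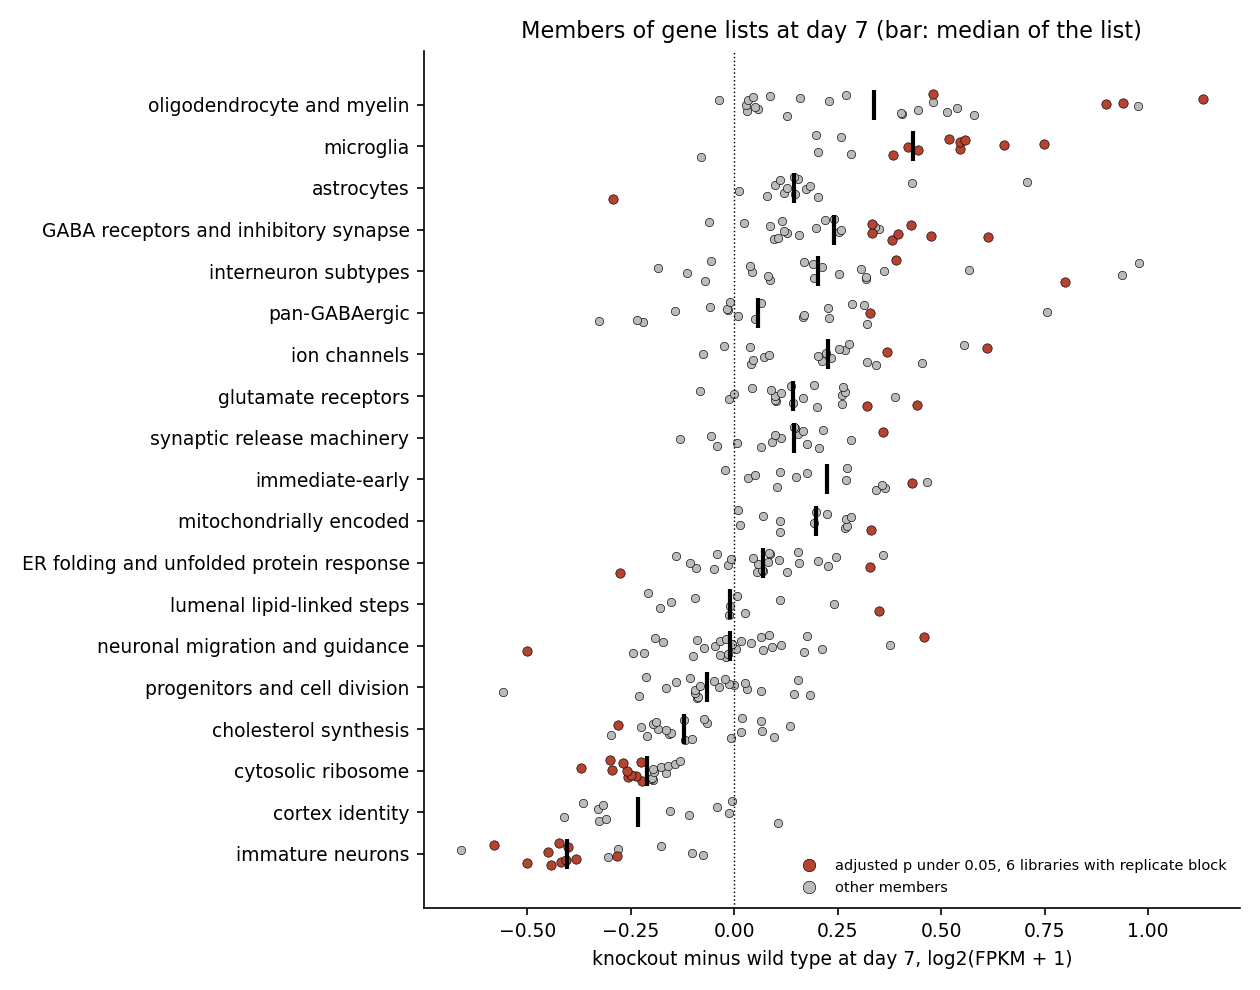
Log2 difference, knockout minus wild type at day 7, of every tested member of 19 gene lists; points are genes, black bars are list medians, and red points passed in the fit of the 6 day 7 libraries with the replicate block. Myelin, microglial, GABA receptor and mitochondrially encoded genes lie to the right of 0, and ribosomal and immature neuron genes lie to the left.

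The direction of a gene's difference at day 7 followed the direction of its change with age, a pattern chosen after the data had been seen. Age was read from wild type day 30 against wild type day 1. The size of that change uses no day 7 library, but its p-value takes the spread from all 18 libraries. Over all genes 3523 (26.4%) were higher and 5503 (41.2%) lower at day 30. Among the 241 genes higher in knockout at an unadjusted p under 0.05, 89.2% were higher at day 30 and 2.49% lower. Among the 229 genes lower in knockout, 87.8% were lower at day 30 and 1.31% higher. The median change with age was 1.68 log2 units in the first set and -1.34 in the second, against -0.19 over all genes. In the 1300 genes with knockout wholly above wild type 56.8% were higher at day 30, and in the 1449 with knockout wholly below 74.1% were lower.

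The same held from the side of age. Genes that were higher at day 30 had a positive knockout difference in 78.0% of cases (median 0.10), genes lower at day 30 in 23.5% (median -0.09), and genes with no called change with age in 53.0% (median 0.01). Across the 13347 genes the day 7 difference and the change with age correlated at a Pearson r of 0.60 and a Spearman rho of 0.57, given as a description, since genes are not independent replicates. Averaged per library, the 3523 genes of higher age level stood at 3.19, 3.19 and 3.12 log2 units in knockout, against 3.08, 3.11 and 2.95 in wild type. The groups did not overlap, and replicate 3 was lowest in both. The 5503 genes of lower age level stood at 3.22, 3.19 and 3.31 in knockout, against 3.29, 3.29 and 3.43 in wild type, where knockout replicate 3 reached into the wild type range. The first set averaged 2.43 in wild type at day 1 and 3.70 at day 30.

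The size of this pattern depended on the libraries. Without wild type replicate 3 the share of higher genes that were also higher at day 30 was 65.3%, and that of lower genes also lower was 67.1%. On leaving out any other single day 7 library the shares were 81.3% to 94.2% and 83.1% to 93.8%. Without wild type day 1 replicate 3, the library with abundant Bpifa2, they were 89.6% and 89.2%. In the 500 genes past the adjusted threshold of the paired fit they were 88.1% of the higher and 92.2% of the lower genes. At the unadjusted cut used for the other shares, the paired fit gave 69.6% and 79.4%. The fit of the 6 day 7 libraries without the block gave 67.9% and 79.3%. In the fit of all 18 libraries both p-values of a gene use 1 estimate of its spread. Genes with little spread are thus called more easily in both comparisons. Whether the libraries differ in the exact age of the mice, in their growth or in the region dissected was not tested.

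**Figure D4:**
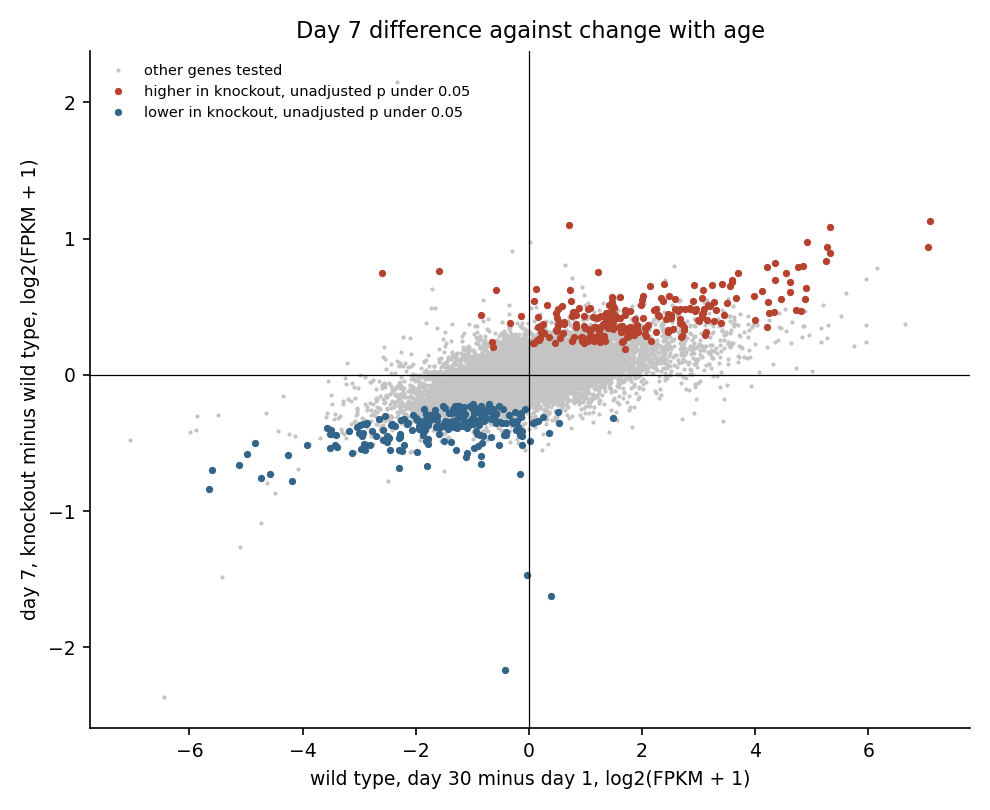
Day 7 difference, knockout minus wild type, against the change of the same gene in wild type from day 1 to day 30, both on the log2(FPKM + 1) scale, for 13347 genes. Red points (241, higher in knockout) lie mostly right of 0 and blue points (229, lower in knockout) mostly left of 0; Tmem254 and Plac9 are 2 of the 3 blue points below -1, all near 0 on the horizontal axis.

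**Figure D5:**
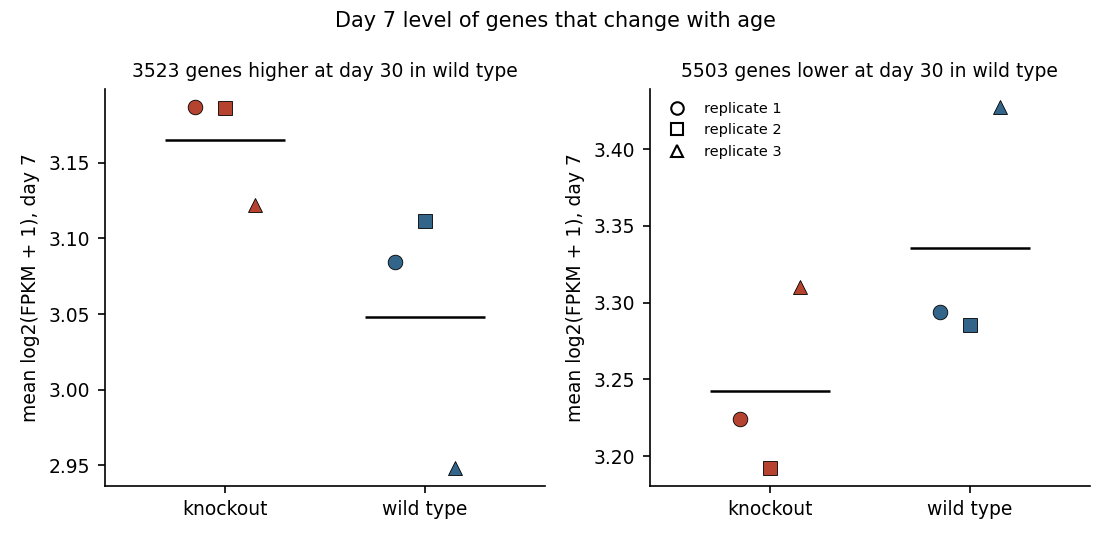
Mean log2(FPKM + 1) at day 7 over 3523 genes that were higher at day 30 than at day 1 in wild type (left) and 5503 that were lower (right), knockout left of wild type in each panel; symbols are replicates 1, 2 and 3 and bars are group means. The axes do not start at 0. In the left panel the knockout libraries (3.12 to 3.19) lie above the wild type libraries (2.95 to 3.11), and in the right panel replicate 3 is the highest of both groups.

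Whether the knockout difference at day 7 differed from that at the other ages was tested gene by gene. Against day 1, 1 gene passed (0.00749%), Ldoc1, an X-linked gene derived from a retrotransposon. At day 7 it measured 1.92, 1.99 and 2.45 FPKM in knockout, against 3.21, 3.18 and 3.98 FPKM in wild type. At day 1 it measured 1.86, 2.17 and 2.39 FPKM in knockout, against 0.894, 1.01 and 0.814 FPKM in wild type. Knockout was thus wholly below wild type at day 7 and wholly above it at day 1, and the knockout level was alike on both days. The difference between the 2 differences was -1.23 (SE 0.161, adjusted p = 0.0122). It did not pass with the replicate block, with a pseudocount of 0.1 or with each library rescaled to an equal and larger total. Nor did it pass without knockout day 7 replicate 1 or without wild type day 7 replicate 3. It did pass after rescaling to an equal total without the mitochondrially encoded genes. At an unadjusted p under 0.05 the contrast with day 1 held 1681 genes (12.6%). Against day 30 limma called 0 genes (0%), with 626 (4.69%) at an unadjusted p under 0.05. A p above the threshold does not show that the 2 ages acted alike, and both contrasts share the day 7 libraries.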

How the data were processed

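RNA sequencing of mouse cortex was compared between 3 knockout and 3 wild type libraries at day 7. The deposited values are FPKM per gene, made by the authors; Bowtie2, RSEM 1.3.1, DESeq2 1.4.5 and the build GRCm39 are named per the submitters' processing notes, with no role or order. FPKM does not keep read counts, so no count test was run and absolute depth is unknown. Values were taken as log2(FPKM + 1), genes with at least 1 FPKM in at least 3 of 18 libraries were kept (13347 of 28852), and limma 3.58.1 in R 4.3.3 fitted all 18 libraries by group, with Benjamini-Hochberg adjustment and a threshold of 0.05. The procedure was tested on simulated data. Named genes are the 12 in each direction with the smallest p at 2 FPKM or more and no overlap between groups, plus members of the gene lists. Other genes were chosen after their values were seen: Tubb3, ATP8, Slc17a7, Gad1, Vip, Nnat, Gap43, Sst, Ugt8a, Scn1a, Gria2, Gabra2, Gabra4, Gabrb1, Glrb, Dpysl3, Rplp1, Crym and Smim43. The comparison and the lists were chosen with earlier results of these data known.

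Same-numbered knockout and wild type libraries deviated together from their group means (correlations 0.333, 0.337 and 0.53), so the numbers were taken to pair the samples. Knockout replicate 2 correlated more with wild type replicate 1 (0.393) than either of them with its own number, and knockout replicate 1 with wild type replicate 2 stood at 0.236. The correlations thus set replicate 3 apart but do not show which of replicates 1 and 2 belong together, and the labels do not say what a shared number means. Promoter windows and gene copies came from RefSeq and the GENCODE annotation of GRCm38.p6, which is not the authors' build, and no coordinates of the deposited table were used.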

Additional observations from a re-analysis of the deposited data

Results flagged for a closer look

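Several genes lay wholly on one side of wild type at day 7 and wholly on the other side at another age. Ldoc1 is the one for which the difference between ages passed the test, at -1.23 for day 7 minus day 1. For the rest the difference was not past the test. The day 7 difference exceeded that at day 30 by 0.99 for Hpcal4, by 0.74 for Gabra2 and by 0.64 for Wfs1, a membrane protein of the endoplasmic reticulum. It was below that at day 30 by a difference of -0.76 for Tubb3 and -0.58 for Mvd, an enzyme of cholesterol synthesis. Against day 1 the difference was -0.92 for Mvd and -0.64 for Wdr46, and it was 0.89 and 0.46 for the Golgi mannosidase genes Man2a1 and Man1a2. Full separation was common, at 20.6% of all genes at day 7. That share includes any real differences, so it does not tell how often separation arises without one.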

How the results depend on the processing

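The number of genes past the threshold at day 7 was 1 in the fit of all 18 libraries. It was 9 in the fit of the 6 day 7 libraries, 6 with no filter on low values, 2 with libraries rescaled to an equal total and 2 without wild type day 1 replicate 3. Of the alternatives chosen after seeing the data, the replicate block on the 6 libraries gave 500 (34, 4 and 2336 without pairs 1, 2 and 3) and rescaling without mitochondrial genes gave 2. Leaving out single day 7 libraries gave 0 to 2. The contrast with day 1 held 1 gene, and also 1 after rescaling without mitochondrial genes. It held 0 after rescaling to an equal total, with pseudocount 0.1 and with the replicate block, 2 with no filter and 2 without wild type day 1 replicate 3, and 0 to 2 on leaving out day 7 libraries. The contrast with day 30 held 0 to 1 on leaving them out. Tmem254 ranged from -1.49 to -1.43 on leaving them out. The share of higher genes also higher at day 30 was 67.9% in the 6 libraries and 69.6% with their replicate block (76.9%, 74.5% and 56.9% without pairs 1, 2 and 3), and 65.3% to 94.2% on leaving out single libraries. The share of lower genes also lower was 79.3%, 79.4% (79.6%, 82.6% and 66.7%), 82.6% after rescaling to an equal total and 67.1% to 93.8%. Leaving out single libraries, Anxa11 ranged from -0.203 to 0.0777 and turned to the higher value without wild type replicate 3, and it was 0.0247 in the paired fit without replicate 3. Nnat ranged from -1.18 to 0.169 and turned without wild type replicate 3. Sst ranged from -0.0871 to 0.373 and turned without knockout replicate 3. Stmn1 turned to 0.0315 with quantile normalization. The cause was not tested. FPKM gives no depth, which limits what can be said of genes near 0.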
